A study of Mus musculus with 8 samples.

Results

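Integrins are cell surface receptors made of 1 alpha and 1 beta subunit, through which cells hold on to the surrounding matrix and to each other. This account describes 9 integrin subunit genes, *Itgav*, *Itga4*, *Itga5*, *Itga6*, *Itga10*, *Itga11*, *Itgb1*, *Itgb2* and *Itgb5*, in the resting and proliferative zones of the mouse growth plate. They were matched by gene symbol and identifier among 43629 genes in the count table, of which 17492 had a count in at least 1 library, and 18 other integrin subunit genes served for comparison. The 8 libraries came from 4 *Axin2*CreERT2;R26RTdTomato mice, 2 male (mice 1 and 2) and 2 female (mice 6 and 13), each giving 1 resting zone and 1 proliferative zone library. All of the mice were given tamoxifen for several days from postnatal day 23 and were killed at postnatal day 30. Resting chondrocytes were those carrying the TdTomato label, so that the resting group holds cells in which the *Axin2* promoter had driven the tamoxifen-dependent Cre, and their descendants. Proliferative chondrocytes were unlabelled, flattened and at least 50 μm from the secondary ossification center, and both were cut from 8 μm frozen sections by laser microdissection. The comparison asks how the receptors for matrix differ between the labelled resting cells and the columns below them.

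In cartilage, *Itgb1* is the common beta partner of most of these alpha chains. *Itga10* and *Itga11* encode the alpha chains of 2 of the collagen receptors, alpha 10 being the one known from chondrocytes and alpha 11 from fibroblasts and other mesenchymal cells. *Itgav* and *Itga5* encode chains that recognise the RGD sequence of fibronectin, osteopontin and vitronectin. *Itga6* encodes a laminin receptor chain and *Itga4* a chain that binds fibronectin and VCAM1 and is known from leukocytes and their precursors. *Itgb2* is the beta chain of the leukocyte integrins, and *Itgb5* pairs with the alpha V chain.

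Total counts ran from 192882 to 462044 in the resting zone libraries and from 249284 to 631474 in the proliferative zone libraries, so that 1 read corresponds to between 1.60 and 4.91 CPM, the read count scaled to a common library size with the trimmed mean of M values. A count of 3 per library was taken as the floor of detection, between 4.81 and 14.7 CPM. The libraries did not hold chondrocyte RNA alone. The summed level of 13 chondrocyte markers was 7541 to 19591 CPM in the resting zone and 35240 to 60327 CPM in the proliferative zone, and 8 of the 13 tested were called higher in the proliferative zone. The 11 osteoclast markers, *Itgb3* among them, summed to 1911 to 4873 CPM in the resting and 89.0 to 501 CPM in the proliferative libraries, with 6 of 7 tested called higher in the resting zone. Pan-leukocyte markers reached 708 to 1124 CPM against 19.2 to 169 CPM, with 8 of 8 tested called, and neutrophil markers 3170 to 4035 CPM against 0 to 563 CPM, with 6 of 8 called. The 11 osteoblast and osteocyte markers summed to 9782 to 37541 CPM in the resting and 684 to 4097 CPM in the proliferative libraries, most of it from *Col1a1* and *Col1a2*, with 2 of 6 tested called and *Sp7* lying the other way (21 against 71 counts). Endothelial markers summed to 334 to 477 CPM in the resting and 170 to 231 CPM in the proliferative libraries, with 5 of 11 genes at 0 throughout the proliferative zone and 0 of 2 tested called. The 9 hypertrophic markers summed to 1141 to 2843 and 1389 to 2092 CPM, and of 8 tested 2 were called in each direction, *Mmp13* and *Spp1* higher in the resting zone and *Col10a1* (14 against 392 counts) and *Panx3* (39 against 1450) higher in the proliferative zone. Among the proliferative libraries, mouse 1 had the highest sums of the osteoclast, pan-leukocyte, neutrophil and osteoblast lists, whereas those of mice 6 and 13 had no count on neutrophil, erythroid, B lymphoid or marrow stroma markers. Among the resting libraries, mouse 6 had the highest chondrocyte sum and the lowest osteoblast and pan-leukocyte sums. The integrin genes are therefore described here by name and not by cell type. Fewer cells of a type and less RNA per cell cannot be told apart in such bulk samples, and the part of these cell types in the values that follow was not tested except where a measurement is given.

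The strand on which reads were counted is not given in the sources used here. *Tsix* and *Xist*, which lie on opposite strands of the same locus, had 18698 and 1368 counts over the 8 libraries. *Xist* is the abundant RNA of this pair in female cells. In the female libraries R6, R13, P6 and P13, *Tsix* had 7064, 1757, 7495 and 2367 counts and *Xist* 665, 126, 413 and 163. In the male libraries *Tsix* had at most 15. Reads may therefore have been counted on the strand opposite to each transcript. This was not tested and bears on every count given here, and reads on a gene and on an opposite-strand neighbour cannot be told apart. *Itgav*, *Itga4*, *Itga7*, *Itga8*, *Itgad* and *Itgb4* share exon bases with an annotated gene on the other strand, and the counts of these neighbours are given beside the genes.

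The start regions of the 4 alpha chain genes on which the account turns are shown first, since *Itgav*, *Itga4* and *Itga11* differed between the zones in 1 direction and *Itga10* lay the other way. Each line gives the 250 bases before the RefSeq start (assembly GRCm38.p6, forward strand in all 4), at chr2:83724147-83724396, chr2:79255176-79255425, chr9:62677605-62677854 and chr3:96645334-96645583, with matches to the motifs searched in capitals.

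Itgav: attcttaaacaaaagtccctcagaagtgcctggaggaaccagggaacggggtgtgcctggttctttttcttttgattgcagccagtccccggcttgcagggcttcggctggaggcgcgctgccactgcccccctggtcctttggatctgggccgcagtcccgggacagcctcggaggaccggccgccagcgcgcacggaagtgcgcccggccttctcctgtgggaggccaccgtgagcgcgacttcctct

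Itga4: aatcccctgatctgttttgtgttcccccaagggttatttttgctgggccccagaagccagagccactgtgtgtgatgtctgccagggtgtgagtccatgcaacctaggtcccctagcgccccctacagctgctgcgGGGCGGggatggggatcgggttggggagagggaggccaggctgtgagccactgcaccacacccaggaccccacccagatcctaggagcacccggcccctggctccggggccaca

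Itga11: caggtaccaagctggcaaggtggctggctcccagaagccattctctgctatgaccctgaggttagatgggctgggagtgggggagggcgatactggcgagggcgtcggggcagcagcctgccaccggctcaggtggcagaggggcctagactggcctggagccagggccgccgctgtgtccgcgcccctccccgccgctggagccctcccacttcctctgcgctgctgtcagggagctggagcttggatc

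Itga10: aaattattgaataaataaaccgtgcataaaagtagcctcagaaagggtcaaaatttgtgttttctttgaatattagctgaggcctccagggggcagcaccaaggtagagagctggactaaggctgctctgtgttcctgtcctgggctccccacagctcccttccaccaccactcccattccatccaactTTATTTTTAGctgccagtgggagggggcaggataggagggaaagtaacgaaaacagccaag

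Both strands were searched for the GC box (GGGCGG), the ETS core (CCGGAA), the TATA box (TATAAA), the AP-1 site (TGANTCA), the SOX core (ACAAAG) and the MEF2 consensus, a choice made with the sequences in view. *Itga4* held 1 GC box, which 32.7% of all 32851 windows of this length also held. *Itga10* held 1 match to MEF2, beginning 61 bases before the start, a motif present in 2.92% of all windows. No match to any of the 6 motifs was found in the windows of *Itgav* or *Itga11*, and none in these 4 windows to the ETS core (12.0% of all windows), the TATA box (12.4%), AP-1 (6.75%) or the SOX core (16.5%). The windows of *Itgav*, *Itga4* and *Itga11* were 64.4%, 64% and 68.4% G or C, and that of *Itga10* 48.0%, beside a median of 52.4%. Those of *Itgb1*, *Itgb5* and *Itga5*, which were not called, were 68.0%, 65.2% and 55.6%. Windows were found for 7 of the 9 genes. Of those not shown, that of *Itgb1* held 1 GC box and 1 SOX core, that of *Itga5* 2 GC boxes and that of *Itgb5* 3 GC boxes. A match describes letters in the window and not a bound site.

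Of the 9 genes, 4 passed the filter on low counts and 5 did not. Of the 4, *Itgav* and *Itga4* were higher in the resting zone, and *Itgb1* and *Itga10* were not called. A gene was called where edgeR's quasi-likelihood test gave a Benjamini-Hochberg adjusted p below 0.01 and a log2 fold change, resting over proliferative, beyond 1 or -1. By this rule 2 of 4 tested members were called higher in the resting zone, where 11.0% of all 3793 tested genes were, and 0 of 4 were called higher in the proliferative zone, where 6.93% were. With the mouse as a replicate block, which compares the zones within each animal, 1 of 4 was called higher in the resting zone beside 10.2% of all genes. *Itga4*, with 9, 0, 2 and 3 proliferative counts, and *Itgav*, with 3 in the proliferative library of mouse 13, passed the filter through their resting libraries. The filter thus favoured the direction in which they were called, and the 2 of 4 is no test against the share of all genes. These counts describe 4 genes and not the family.

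**Figure D1:**
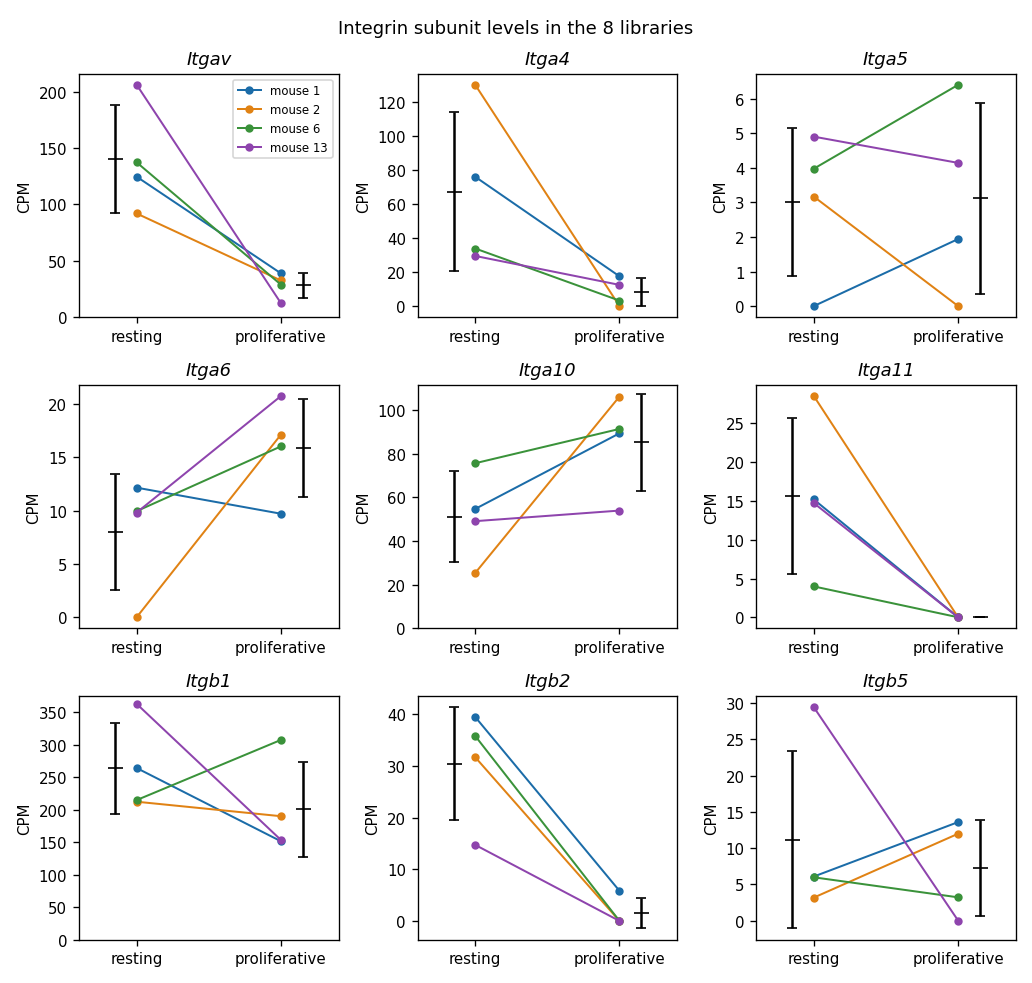
Level of each of the 9 integrin subunit genes in CPM (vertical axes, a separate scale for each gene) in the resting and proliferative zone library of each mouse, joined by a line, with the mean and SD of 4 libraries in black. *Itgav*, *Itga4*, *Itga11* and *Itgb2* had the higher value in the resting library of every mouse, *Itga10* had it in the proliferative library of every mouse with overlapping zones, and the lines of *Itgb1* crossed.

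*Itgav* (ENSMUSG00000027087, chromosome 2, 83724397 to 83806916, forward strand) encodes the alpha V chain, which pairs with the beta 1, 3, 5, 6 and 8 chains. Its counts in the resting libraries of mice 1, 2, 6 and 13 were 41, 29, 69 and 42, and in the proliferative libraries 20, 19, 18 and 3. In CPM these were 124.5, 91.9, 137 and 206 against 38.8, 32.5, 28.8 and 12.4. Every resting library lay above every proliferative library. The means were 140.0 ± 48.1 and 28.2 ± 11.3 CPM (SD, n = 4 libraries each), a log2 fold change of 2.23 (SE 0.39, 95% interval 1.39 to 3.08) with an adjusted p of 0.00112 in edgeR's quasi-likelihood test. Within the mice the log2 ratio of CPM + 1 was 1.66, 1.47, 2.21 and 3.95, resting higher in 4 of 4, and with the mouse as a block the log2 fold change was 2.20 (adjusted p = 0.00409). The exact permutation test of the mean log2(CPM + 1) gave p = 0.0286, the smallest that 4 against 4 libraries allow. That test takes no account of the pairing by mouse, and a sign-flip test over the 4 pairs could not pass 0.05, unlike the blocked fit. The call was kept when any 1 library was left out (log2 fold change 1.92 to 2.37), and the adjusted p was 0.0111 without both libraries of mouse 13. The summed osteoclast markers were 4687, 1911, 3416 and 4873 CPM in the resting libraries of mice 1, 2, 6 and 13, so that, like *Itgav*, they were highest in mouse 13 and lowest in mouse 2, while *Itgb3* alone was lowest, at 44.2 CPM, in mouse 13. In the proliferative libraries of mice 2, 6 and 13 *Itgb3* had no count and the osteoclast list summed to 89.0, 104 and 141 CPM. The part of osteoclasts in the level of *Itgav* was not tested. An exon overlap of 634 bases with *Gm13684* on the opposite strand is annotated, and that whole gene had 5 counts over the 8 libraries.

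*Itga4* (ENSMUSG00000027009, chromosome 2, 79255426 to 79333123, forward strand) encodes the alpha 4 chain, the partner of beta 1 and beta 7. It had 25, 41, 17 and 6 counts in the resting libraries of mice 1, 2, 6 and 13 and 9, 0, 2 and 3 in the proliferative ones, or 75.9, 130.0, 33.8 and 29.4 CPM against 17.5, 0, 3.20 and 12.4 CPM. The lowest resting library still lay above the highest proliferative one. The means were 67.3 ± 46.7 and 8.28 ± 8.09 CPM (SD, n = 4 each), with a log2 fold change of 3.11 (SE 0.78, 95% interval 1.42 to 4.81) and an adjusted p of 0.00936 in the quasi-likelihood test. With the mouse as a block the log2 fold change was 3.14 and the adjusted p 0.0162, past the threshold of 0.01. The log2 ratios of CPM + 1 within mice 1, 2, 6 and 13 were 2.06, 7.03, 3.05 and 1.18, again 4 of 4 with resting higher. The ratio in mouse 2 is set against 0 counts and depends on the 1 CPM added. That in mouse 6 is set against 2 counts, under the floor. The exact permutation test gave p = 0.0286. The call was kept in 2 of the 8 fits without 1 library, those without the resting library of mouse 6 or the proliferative library of mouse 1, and was lost without any of the others, where the adjusted p reached 0.0384 without the proliferative library of mouse 6. Over the resting libraries *Itga4* was highest in mouse 2 and lowest in mouse 13, the order opposite to that of *Itgav* at both ends.

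The last exons of *Itga4* share 1124 bases, between positions 79330543 and 79332656 of chromosome 2, with *Cerkl* on the opposite strand, a gene known from the retina. *Cerkl* had 76, 113, 36 and 38 counts in the resting libraries of mice 1, 2, 6 and 13 and 29, 6, 3 and 1 in the proliferative ones, more than *Itga4* in 7 of the 8 libraries. The log2 fold change of *Cerkl* alone was 3.40 (adjusted p = 0.00326 in the quasi-likelihood test; 3.73 and 0.000703 with the mouse as a block). With the counts of both genes summed, a comparison added after these counts were seen, the log2 fold change was 3.33 (SE 0.67, adjusted p = 0.00254), and 3.59 with the mouse as a block (adjusted p = 0.000645). The summed level was 307, 488, 105 and 216 CPM in the resting libraries and 73.8, 10.3, 8.01 and 16.6 CPM in the proliferative ones. Since *Cerkl* held most of the summed counts and was called alone, the sum does not test *Itga4*. Which of the 2 genes these reads came from cannot be told apart.

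**Figure D2:**
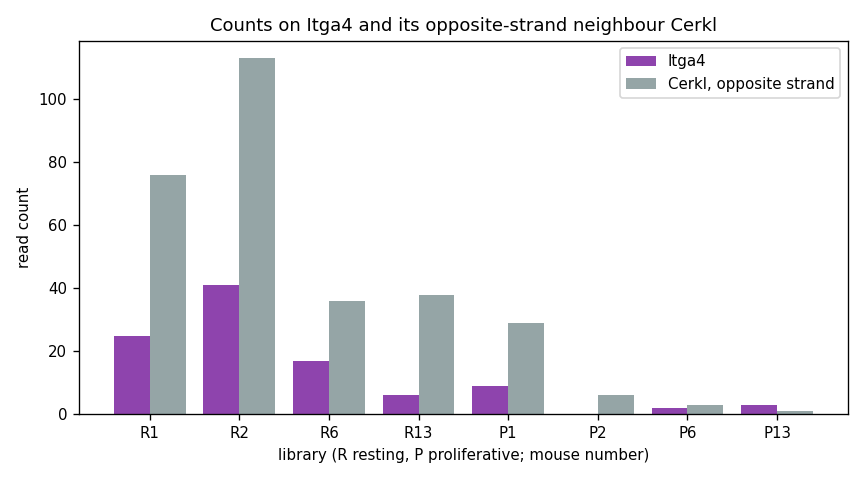
Read counts on *Itga4* and on *Cerkl*, which overlaps its last exons on the opposite strand, in each of the 8 libraries (R resting, P proliferative, with the mouse number). Both genes had their highest count in the resting library of mouse 2, 41 and 113, and few counts in the proliferative libraries of mice 2, 6 and 13.

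*Itgb1* (ENSMUSG00000025809, chromosome 8, 128685654 to 128733200, forward strand), the beta 1 chain, had the most counts of the family. It had 87, 67, 108 and 74 counts in the resting libraries and 78, 111, 192 and 37 in the proliferative ones, or 264, 212, 215 and 363 CPM against 151, 190.0, 308 and 153.5 CPM. The proliferative libraries of mice 1, 2 and 13 lay below every resting library, and that of mouse 6 lay within the resting range. The means were 264 ± 70.5 and 201 ± 73.5 CPM (SD, n = 4 each), and the log2 fold change of 0.37 had a 95% interval of -0.27 to 1.02 (adjusted p = 0.378 in the quasi-likelihood test; 0.40 and 0.408 with the mouse as a block). The resting library was higher in 3 of 4 mice, with log2 ratios of 0.80, 0.16, -0.52 and 1.24 in mice 1, 2, 6 and 13. Without both libraries of mouse 6 the log2 fold change was 0.72 (adjusted p = 0.0888 in the quasi-likelihood test). Without both of mouse 13 it was 0.05 (adjusted p = 0.938).

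*Itga10* (ENSMUSG00000090210, chromosome 3, 96645584 to 96664519, forward strand) lay the other way without being called. Its counts were 18, 8, 38 and 10 in the resting and 46, 62, 57 and 13 in the proliferative libraries of mice 1, 2, 6 and 13, or 54.7, 25.4, 75.6 and 49.1 CPM against 89.3, 106, 91.3 and 53.9 CPM. The proliferative library was higher in 4 of 4 mice, but the resting libraries of mice 1 and 6 lay above the proliferative library of mouse 13. The means were 51.2 ± 20.7 and 85.2 ± 22.1 CPM (SD, n = 4 each). The log2 fold change was -0.73 with a 95% interval of -1.56 to 0.10 (adjusted p = 0.177 in the quasi-likelihood test; -0.77 and 0.213 with the mouse as a block), and the exact permutation test gave p = 0.0857. The largest difference within an animal was in mouse 2, a log2 ratio of -2.02, and the smallest in mouse 13, -0.13. The resting library of mouse 6, the one with the most chondrocyte marker RNA among the resting libraries, also had the highest resting level of *Itga10*. Among the proliferative libraries *Itga10* was lowest in mouse 13. The chondrocyte sum there, 42039 CPM, was above those of mice 1 (35240 CPM) and 6 (38265 CPM). The part of chondrocyte RNA in the level of *Itga10* was not tested.

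The other 5 genes had too few counts for the filter and were tested among all 17492 genes with a count. There 4 of the 9 members were called higher in the resting zone, *Itga11*, *Itgb2*, *Itgav* and *Itga4*, beside 4.74% of all genes, and none in the other direction, beside 2.68%. With the mouse as a block 3 of the 9 were, beside 3.77% of genes, since the adjusted p of *Itga11* became 0.0119.

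*Itgb2* (ENSMUSG00000000290, chromosome 10, 77530252 to 77565708), the beta 2 chain that pairs with the alpha L, M, X and D chains on leukocytes, had 13, 10, 18 and 3 counts in the resting libraries of mice 1, 2, 6 and 13. In the proliferative libraries it had 3 counts in mouse 1 and 0 in the other 3. The resting mean was 30.4 ± 10.9 CPM (SD, n = 4) against 5.82 CPM in the 1 proliferative library with counts. The total of 44 counts against 3, scaled for library size, is a ratio of 21.3 with an exact 95% interval of 6.84 to 107, which covers counting error alone. The adjusted p in the quasi-likelihood test over all genes was 0.000715, and 0.000536 with the mouse as a block. It was 0.0115 or 0.0125 without the proliferative library of mouse 2 or of mouse 6. Without the proliferative library of mouse 1, which held all 3 counts of its zone, the fitted log2 fold change moved from 3.85 to 6.55, a value that then depends on the prior count. The 3 proliferative counts lay in the library that also had the highest pan-leukocyte, neutrophil and osteoclast marker sums of its zone. In the proliferative libraries of mice 2, 6 and 13, where *Itgb2* was at 0, neutrophil markers summed to 127, 0 and 0 CPM and pan-leukocyte markers to 44.5, 19.2 and 33.2 CPM. The part of leukocytes in its level was not tested.

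*Itga11* (ENSMUSG00000032243, chromosome 9, 62677826 to 62783982) had 5, 9, 2 and 3 counts in the resting libraries of mice 1, 2, 6 and 13 and 0 in all 4 proliferative libraries. The resting levels were 15.2, 28.5, 3.98 and 14.7 CPM, a mean of 15.6 ± 10.1 CPM (SD, n = 4). This mean was 2.21 times the mean floor of 3 counts per proliferative library, 7.05 CPM, which is not a lower bound for single mice. The resting library of mouse 6, with 2 counts, lay under the floor of 3 counts, and that of mouse 13 lay at it. The adjusted p in the quasi-likelihood test over all genes was 0.00297, and 0.0119 with the mouse as a block. The call was kept in 4 of the 8 fits without 1 library and lost without the resting library of mouse 2 (adjusted p = 0.0293) or the proliferative library of mouse 1, 2 or 6. Over the resting libraries *Itga11* was lowest in mouse 6, the library with the lowest osteoblast and osteocyte marker sum, and highest in mouse 2, while that sum was highest in mouse 1, and the part of bone cells in its levels was not tested.

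*Itga6*, *Itgb5* and *Itga5* were not called, with few counts in every library. *Itga6* (chromosome 2, 71745616 to 71858416) had 4, 0, 5 and 2 counts in the resting and 5, 10, 10 and 5 in the proliferative libraries, higher in the proliferative library in 3 of 4 mice. Its means were 7.98 ± 5.43 and 15.9 ± 4.59 CPM (SD, n = 4 each), a count ratio of 0.533 with an exact 95% counting interval of 0.241 to 1.09 and an adjusted p of 0.432 in the quasi-likelihood test over all genes (0.568 with the mouse as a block). *Itgb5* (chromosome 16, 33829665 to 33949338) had 2, 1, 3 and 6 counts against 7, 7, 2 and 0, so that the zones overlapped and the log2 ratio was below 0 in the male mice 1 and 2 and above 0 in the female mice 6 and 13. Its count ratio was 1.09 with an interval of 0.471 to 2.46 (adjusted p = 0.954 in the quasi-likelihood test, 0.991 with the block). *Itga5* (chromosome 15, 103344286 to 103366763), the alpha chain of the classical fibronectin receptor, had 0 to 2 counts in the resting and 0 to 4 in the proliferative libraries. Most of these were under the floor of 3 counts, and no fold is given (adjusted p = 0.935 in the quasi-likelihood test over all genes, 0.987 with the block).

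**Figure D3:**
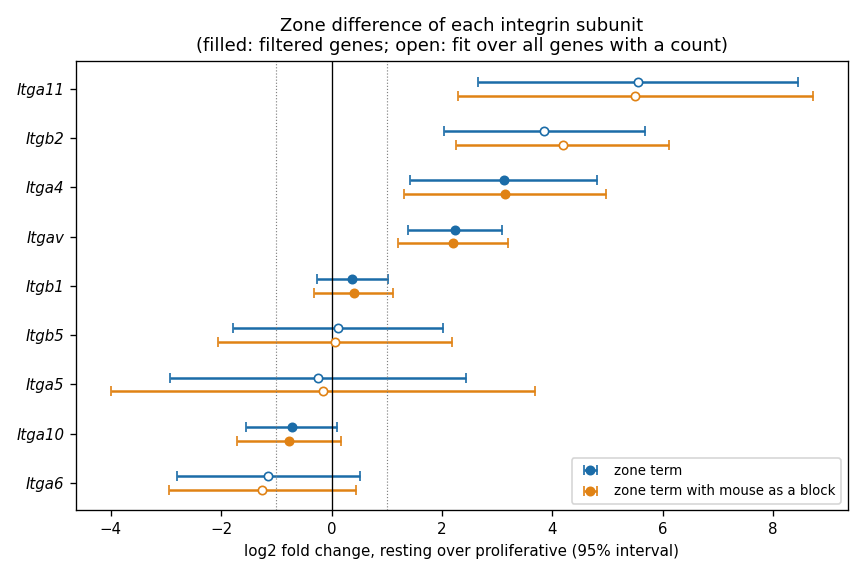
Log2 fold change, resting over proliferative, of each integrin subunit with its 95% interval, from the zone term alone (blue) and with the mouse as a block (orange). Filled points are genes that passed the filter and open points come from the fit over all genes with a count. The intervals of *Itga11*, *Itgb2*, *Itga4* and *Itgav* lie above 0 in both, those of *Itgb1*, *Itgb5*, *Itga5*, *Itga10* and *Itga6* include it, and the open point of *Itga11*, with no count in the proliferative zone, depends on the prior count.

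In all, 4 of the 9 genes had no overlap between the zones. For 2 of the 4 that passed the filter this compares with 32.9% of all genes tested with them, and for the 9 it compares with 13.4% of the genes with a count. Those 2, *Itgav* and *Itga4*, passed the filter through their resting libraries, so that the comparison is a description and no test.

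Levels of the genes were set in order as mean CPM per kilobase of annotated exon. In the resting zone the order was *Itgb1* (64.6 ± 17.3, SD, n = 4), *Itgav* (13.0 ± 4.47), *Itgb2* (9.97 ± 3.59), *Itga10* (9.87 ± 3.98), *Itga4* (4.81 ± 3.34), *Itgb5* (3.14 ± 3.45), *Itga11* (3.04 ± 1.96), *Itga6* (0.884 ± 0.601) and *Itga5* (0.611 ± 0.432). Only *Itgb1* stood clear of its neighbour, its lowest library being above the highest *Itgav* library, and every other pair of neighbours in this order overlapped. In the proliferative zone the order was *Itgb1* (49.2 ± 18.0), *Itga10* (16.4 ± 4.27), *Itgav* (2.62 ± 1.05), *Itgb5* (2.02 ± 1.86), *Itga6* (1.76 ± 0.509), *Itga5* (0.633 ± 0.561), *Itga4* (0.592 ± 0.579) and *Itgb2* (0.477 ± 0.954), with *Itga11* at 0. There *Itgb1* and *Itga10* each stood clear of the next gene and the rest overlapped. The alpha chain with the highest level per kilobase was *Itgav* in the resting zone and *Itga10* in the proliferative zone, and in the resting zone these 2 overlapped. Amplification by in vitro transcription begins at the 3′ end of the RNA, which makes a division by the whole exon length approximate. Divided by the longest transcript instead, *Itgav* was at 19.8 and 3.99 and *Itga6* at 1.85 and 3.69 CPM per kilobase in the resting and proliferative zones, and in the proliferative zone *Itga6* then stood above *Itgb5* and *Itga4* above *Itga5*.

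The make-up of the alpha chain counts within each library does not depend on the scaling between libraries. Of the counts on all 18 alpha chain genes, *Itga10* took 15.5%, 6.40%, 22.5% and 11.1% in the resting libraries of mice 1, 2, 6 and 13 and 48.4%, 62%, 60.6% and 41.9% in the proliferative ones. *Itgav* took 35.3%, 23.2%, 40.8% and 46.7% in the resting and 21.1%, 19.0%, 19.1% and 9.68% in the proliferative libraries. Neither gene's shares overlapped between the zones, but those of *Itgav* came close. Its lowest resting share, in mouse 2, had a Wilson 95% interval of 16.7% to 31.3%. Its highest proliferative share, in mouse 1, had one of 14.1% to 30.3%. Shares within a library also depend on each other, so that more counts on any gene lower the shares of the rest. The smallest of these totals was the proliferative library of mouse 13 with 31 counts, where the Wilson 95% interval of the *Itga10* share was 26.4% to 59.2%. The ratio of *Itgav* to *Itga10* counts was 2.28, 3.63, 1.82 and 4.20 in the resting and 0.435, 0.306, 0.316 and 0.231 in the proliferative libraries, a description chosen after the values were seen. Shares and count ratios are not corrected for length, and *Itgav* has the longer exons. Per kilobase of exon the same ratio was 1.10, 1.75, 0.876 and 2.03 in the resting libraries, so that *Itga10* was the higher of the pair in mouse 6, and 0.210, 0.148, 0.152 and 0.111 in the proliferative ones. With the longest transcript it was 1.30 in the resting library of mouse 6. Relative to the beta 1 chain, *Itgav* had 0.471, 0.433, 0.639 and 0.568 counts per *Itgb1* count in the resting libraries and 0.256, 0.171, 0.0938 and 0.0811 in the proliferative ones, without overlap. *Itga10* had 0.207, 0.119, 0.352 and 0.135 in the resting and 0.590, 0.559, 0.297 and 0.351 in the proliferative libraries. Its ratios overlapped, and in mouse 6 the resting one was higher. Summed over the 4 collagen receptor chains (*Itga1*, *Itga2*, *Itga10* and *Itga11*), the level was 53.9 to 93.2 CPM in the resting and 78.8 to 116 CPM in the proliferative zone, ranges that overlapped. *Itga4* took 6.67% to 32.8% of the alpha counts in the resting zone and up to 9.68% in the proliferative zone.

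**Figure D4:**
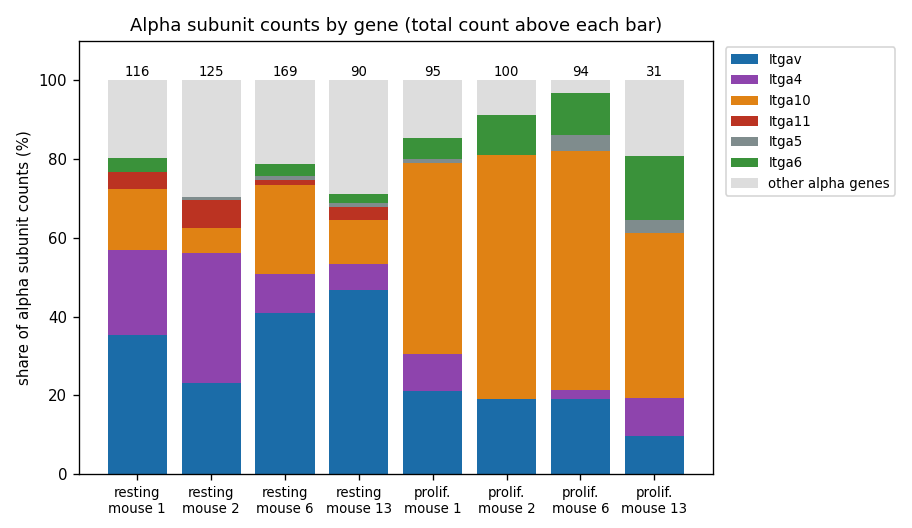
Share of the counts on all 18 alpha subunit genes (vertical axis, percent) taken by each gene in the 8 libraries, with the total count above each bar. *Itga10* took 41.9% to 62% in the proliferative libraries and 6.40% to 22.5% in the resting libraries, while *Itgav* took 23.2% to 46.7% in the resting libraries. The shares are of counts, not corrected for gene length.

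The 18 other subunit genes place these values in the family. *Itgb3*, the beta chain of the osteoclast alpha V beta 3 receptor, had 42, 20, 40 and 9 counts in the resting libraries and 7, 0, 0 and 0 in the proliferative ones, a log2 fold change of 4.36 (SE 0.85, adjusted p = 0.00217 in the quasi-likelihood test). *Itgb4*, the beta partner of alpha 6 in hemidesmosomes, went the other way without overlap, with 5, 2, 8 and 0 against 20, 31, 24 and 17 counts. Its log2 fold change was -2.20 (SE 0.56) with an adjusted p of 0.0101, just outside the threshold, and -2.42 (adjusted p = 0.00185) in the quasi-likelihood test over all genes. Its opposite-strand neighbour *B230344G16Rik* had 3 counts in all. The leukocyte alpha chain *Itgam* had 34 counts in the resting and 4 in the proliferative zone (adjusted p = 0.00712 over all genes, 0.0174 with the mouse as a block). *Itgb7*, the other beta partner of alpha 4, had 21 against 2 counts (adjusted p = 0.0305), *Itga2b* 10 against 2, and *Itga9* 16 against 0. *Itgad* had 19 against 3 counts, with 121 against 14 counts on *Cox6a2* across the strand. *Itga1* had 7 counts in the resting and 15 in the proliferative zone. The remaining genes had between 2 and 12 counts over the 8 libraries, except *Itgbl1*, a related gene listed with the family, which had none. *Mettl7b*, across the strand from *Itga7*, had 41 against 7 counts, and *E030013I19Rik*, across from *Itga8*, had none. The remaining genes were *Itga2*, *Itga3*, *Itga7*, *Itga8*, *Itgae*, *Itgal*, *Itgax*, *Itgb6* and *Itgb8*. Taken as a list, the 8 leukocyte integrin genes, which include *Itga4* and *Itgb2*, summed to 117 to 269 CPM in the resting and 1.71 to 40.8 CPM in the proliferative zone.

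**Figure D5:**
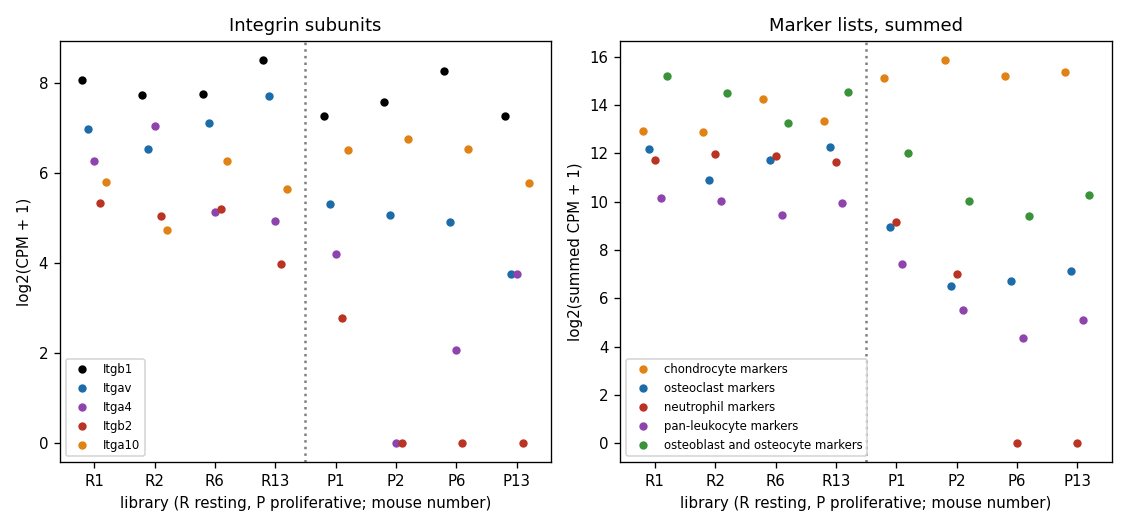
Left, 5 integrin subunits as log2(CPM + 1), and right, summed marker lists as log2(summed CPM + 1), in the 8 libraries (R resting, P proliferative, with the mouse number). *Itgb2* was at 0 in the proliferative libraries of mice 2, 6 and 13, and neutrophil markers in those of mice 6 and 13, where *Itgav* was at 28.8 and 12.4 CPM and osteoclast markers at 104 and 141 CPM.

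Among the ligands, collagens of bone and of basement membrane and fibronectin were higher in the resting zone and cartilage collagen II was higher in the proliferative zone. Of 47 ligand genes with a row in the table, 18 passed the filter, and of these 7 were called higher in the resting and 3 in the proliferative zone, where 11.0% and 6.93% of all tested genes were, with a median log2 fold change of 2.24 beside 0.08 over all tested genes. The largest called difference was that of *Col4a2*, a basement membrane collagen chain with 181 counts in the resting and 3 in the proliferative zone (log2 fold change 6.20, adjusted p = 0.000136 in the quasi-likelihood test). Among the endothelial markers, *Pecam1* had 51 against 0 and *Cdh5* 57 against 2 counts, but *Eng* 121 against 187 and *Egfl7* 164 against 185, and the part of vessels in these values was not tested. *Col4a1*, which shares bases with *Col4a2* on the opposite strand, followed with 260 against 14 counts (4.61). *Fn1*, the RGD ligand of alpha 5 beta 1 and of the alpha V receptors, was at 687 ± 394 CPM in the resting and 88.0 ± 24.0 CPM in the proliferative libraries (SD, n = 4), with a log2 fold change of 2.98. Of its 1045 resting counts, 638 lay in mouse 6. *Spp1*, osteopontin, a ligand of alpha V beta 3 and a marker of bone and hypertrophic cells, had a log2 fold change of 3.54 (adjusted p = 0.00847), with 336 of its 541 resting counts in mouse 6. The fibrillar collagen chains *Col1a1*, *Col1a2* and *Col3a1*, also made by bone cells, had log2 fold changes of 4.25, 3.20 and 4.50.

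Toward the proliferative zone, *Col2a1*, the main collagen of cartilage and a ligand of alpha 10 beta 1, was at 15310 ± 4544 CPM against 5942 ± 1817 CPM in the resting zone (SD, n = 4 each; log2 fold change -1.37, adjusted p = 0.00275 in the quasi-likelihood test). *Mfge8*, a secreted RGD protein bound by alpha V receptors, had 630 counts in the proliferative and 87 in the resting zone (-2.44), and *Tgfbi*, another secreted integrin ligand, 134 and 15 (-2.63). The RGD ligands were called in both directions.

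Of 51 genes for integrin activators, linkers and kinases with a row in the table, 24 passed the filter, 4 were called higher in the resting and 1 in the proliferative zone, beside 11.0% and 6.93% of all tested genes, and 19 were not called. These shares of the list lie near those of all genes. The median log2 fold change was 0.68 beside 0.08 over all tested genes, and with the mouse as a block 3 and 1 were called. *Rap1b*, a small GTPase that acts upstream of talin, had 156 against 56 counts (log2 fold change 2.12, adjusted p = 0.000703 in the quasi-likelihood test). *Flna*, which ties integrin tails to actin, had 218 against 72 (2.10), *Actn1*, an actin crosslinker of adhesions, 106 against 34 (2.20), and *Zyx*, a protein of mature adhesions, 49 against 17 (2.05). *Zyx* shares 236 bases with *Epha1* on the opposite strand, which had 56 against 12 counts, and under the block *Zyx* was no longer called (adjusted p = 0.0173). *Cd9*, a tetraspanin that binds integrins, was higher in the proliferative zone, with 1021 counts against 266 (-1.50, adjusted p = 0.00955).

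For the 4 members with a mean of at least 20 CPM, the 3 genes with the most similar pattern were found by Pearson's r of log2(CPM + 1) over the 8 libraries, which share zone, animal and depth, so that r is a description. For *Itgav* they were *Ctsa* (r = 0.996), *Map4k4* (0.993) and *Bcas3os1* (0.986). For *Itga4* they were *Fli1* (0.993), *Nab2* (0.971) and *Gm29331* (0.961). For *Itga10* they were *Anxa5* (0.945), *Klhl13* (0.920) and *Hif1a* (0.919), and for *Itgb1* they included *Ccni* (0.934) and *Rac1* (0.882).

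A difference of the zone effect between the sexes was tested for all 9 genes with 2 mice per sex. The lowest adjusted p of the interaction was 0.807 among the 4 filtered genes and 0.907 among all 9 in edgeR's quasi-likelihood test, and at an unadjusted p below 0.05 there were 0 of 4 and 1 of 9, *Itgb5*, whose log2 fold change was higher by 4.24 in the females. Over all tested genes the shares at that p were 6.59% and 4.89%.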

How the data were processed

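RNA from laser-microdissected resting and proliferative zones of 4 mice was amplified by 2 rounds of in vitro transcription and sequenced by the authors. The deposited values are raw read counts per gene, which the submitters' processing notes tie to HISAT2 2.1.0, HTSeq 0.11.2 and GRCm38. Gene positions, exon lengths and strand neighbours here come from GENCODE M21, which is not the annotation on which the reads were counted. The authors' table of fold changes and p-values was used for gene symbols alone, which named 11840 genes, with 30685 more named from the reference.

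Counts were scaled by TMM and fitted on zone with edgeR 4.0.16 (quasi-likelihood test) in R 4.3.3 after filterByExpr (minimum count 10, minimum total 15), keeping 3793 genes, with Benjamini-Hochberg adjustment over all of them. Members outside the filter were tested over all 17492 genes with a count. The common biological coefficient of variation was 0.380. Same-numbered libraries come from the same animal, per the labels, and their deviations from the zone means correlated at 0.165, 0.0136, 0.137 and 0.0577 for mice 1, 2, 6 and 13. The blocked value is therefore given beside each tested member. Single levels were compared by an exact permutation test, two-sided, on log2(CPM + 1). Alternatives were the likelihood ratio test, DESeq2 1.42.0, the block, other scalings, other filters, an adjusted p of 0.05 and each library or mouse left out. Intervals of count ratios and shares and the floor of 3 counts cover counting error alone, since reads carried no molecular identifiers and were amplified, while intervals of log2 fold changes come from the fit and include the spread between libraries.

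Members and lists were chosen with earlier results of these data known. Named genes are all members, the other subunits, at most 8 called genes per direction of the ligand and linker lists, and the 3 genes most like each member above 20 CPM. 1 of the genes like *Itgb1* is not reported here.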

Additional observations from a re-analysis of the deposited data

Results flagged for a closer look

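The level of *Itgb5* in the resting library of mouse 13, 29.4 CPM from 6 counts, lay far from the other 3 resting libraries, of which the nearest was at 6.08 CPM. *Itgb2* in the proliferative library of mouse 1, at 5.82 CPM from 3 counts, stood apart from the other 3, which were at 0, so that any count there would have been marked. Dixon's test at the 95% level was applied to 17 groups of 4 libraries, and chance marks about 1 in 20 such groups. With 3 and 6 counts behind them, both values were within a few reads of the floor.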

How the results depend on the processing

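The number of members called higher in the resting zone, 2 of 4 tested, was 1 with the mouse as a replicate block and 1 with upper quartile factors, in both cases through the loss of *Itga4*. It was 4 over all genes with a count, where all 9 members were tested, and 0 with at least 10 counts in every library, where *Itgb1* alone of the 4 was tested. It ran from 1 to 3 without any 1 library, 3 being without the proliferative library of mouse 1, where *Itgb2* also passed the filter, and from 0 to 1 without both libraries of a mouse. Without both libraries of mouse 13 *Itgav* kept a log2 fold change of 1.78 with an adjusted p of 0.0111, its only loss in 20 settings. *Itga4* lost its call in 11 of 19 settings. The sum of its counts and those of *Cerkl* was called with and without the block. *Cerkl* had 302 counts over the 8 libraries and *Itga4* 103, so that the sum cannot show whether *Itga4* keeps its call. The log2 fold change of *Itga4* alone ran from 2.10 without both libraries of mouse 2 (adjusted p = 0.0523) to 3.98 without both of mouse 1 (0.0120). *Itga4* could not be tested without mouse 6. *Itga11* lost its call in 5 of 11 settings and *Itgb2* in 2 of 11, without the proliferative library of mouse 2 (adjusted p = 0.0115) or of mouse 6 (0.0125). *Itgb1* and *Itga10* were called in none of the settings run.

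Of all tested genes, 419 were called higher in the resting and 263 in the proliferative zone. The counts were 829 and 468 over all genes with a count, 125 and 137 with at least 10 counts in every library, and 635 and 427 at an adjusted p below 0.05. Without 1 library they ran from 255 to 472 and from 183 to 349, and without both libraries of a mouse from 192 to 365 and from 112 to 278. The split moved to 339 and 359 under upper quartile factors, which shifted the median log2 fold change by -0.22, and to 471 and 207 with library size only (shift of 0.12), and the fit over all genes shifted the same genes by -0.23. The block left 385 and 230, and the likelihood ratio test and DESeq2 gave 566 and 386, and 495 and 352. *Itga5*, at -0.24, ran from -0.66 to 0.50 without any 1 library, with 0.15 and 0.50 without the resting library of mouse 1 or the proliferative library of mouse 6. *Itgb5*, at 0.12, ran from -0.76 to 0.62, with -0.76, -0.15 and -0.19 without the resting library of mouse 13 or the proliferative library of mouse 6 or 13. The cause of these changes was not tested. *Itga5*, *Itga6* and *Itgb5* had at most 10 counts in any library.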
